A study of Mus musculus with 6 samples.

Results

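Glycolysis, lactate export and pyruvate entry were followed through 32 genes: glucose carriers, the enzymes from hexokinase to pyruvate kinase, lactate dehydrogenases and lactate carriers, and pyruvate dehydrogenase with its kinases and phosphatase. The genes were chosen by name, not by their values, and all 32 symbols were found among the 57508 genes of the expression tables. They fill 33 entries, because Aldoa is listed a second time under another identifier (ENSMUSG00000114515) that reached at most 1.14 CPM (counts scaled per library to a common total) and is not counted among the 32. RNA was sequenced from KPC1199, a single mouse line labelled as pancreatic tumour cells. In all, 3 libraries carry the genotype WT and the name siACSL5_CY3, and 3 carry the genotype ACSL5 knockdown and the name siACSL5_2260. The library names of both groups begin with siACSL5, and the labels do not say what CY3 or the number in the knockdown names stands for. The knockdown libraries are titled KO. The labels give no dose or time, and do not say whether the 3 libraries of a group came from separate cultures, so p-values measure only the spread between libraries, which may be technical. The comparison was made to ask what ACSL5, an enzyme that joins long-chain fatty acids to coenzyme A, does as pancreatic ductal adenocarcinoma progresses. A single cell line at no stated time does not show progression itself. All knockdown libraries carry the same name, so effects of lower ACSL5 and other effects of that treatment cannot be told apart.

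Glycolysis splits glucose into pyruvate and yields ATP and NADH. Phosphofructokinase sets much of its pace and is switched on by fructose 2,6-bisphosphate, which the bifunctional PFKFB enzymes make and remove. Pyruvate is then reduced to lactate by lactate dehydrogenase and leaves the cell through monocarboxylate carriers, or it enters mitochondria and is oxidised by the pyruvate dehydrogenase complex, which PDH kinases switch off and PDH phosphatases switch on. Many tumours, pancreatic ductal adenocarcinoma among them, are known for high glucose uptake and lactate release, and several of these genes are textbook targets of the hypoxia-inducible factors and of MYC.

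The targeted gene was low in every knockdown library. Acsl5 stood at 342.4, 265.2 and 270.2 CPM in the WT libraries and at 49.8, 55.6 and 57.2 CPM in the knockdown libraries, in the order of their replicate numbers as throughout, which left 18.5% of the WT mean (two-sided exact permutation test over the 20 assignments, p = 0.1, the smallest this design allows). Library totals lay between 21794201 and 29996160 expected counts. WT replicate 1 was unlike the rest: over log2 CPM it correlated at 0.896 to 0.917 with the other 5 libraries, while the other 10 pairs lay between 0.969 and 0.99. Among the 31 members tested it was the highest library of all in CPM for 15 and the lowest for 10. The shares of all genes at these extremes are not given here. Results below are therefore given both without WT replicate 1 and with it. In TPM (deposited values scaled for length and to a common total) Pfkl and Pfkm, highest there in CPM, were lowest there (69.3 and 44.5 TPM). From WT replicate 2 to knockdown replicate 1, Gapdh fell in CPM (5868.1 to 5066.4) and rose in TPM (10530.9 to 11475.1). Slc16a1 fell on both scales (331.3 to 232.0 CPM, 114.0 to 78.5 TPM), so TPM was not these counts divided by a fixed length per gene. Where markers of cell types are concerned, the epithelial and ductal list (8 genes, keratins 8, 18 and 19 among them) summed to 8707.0 to 9369.1 TPM in WT and 8106.4 to 8881.6 TPM in knockdown libraries. These keratins carry that sum; by gene, 4 of the 8 rose and 1 fell without WT replicate 1, with a median log2 fold change of 0.21. The macrophage list summed to 53.8 to 69.5 TPM in WT and 91.8 to 94.9 TPM in knockdown libraries, nearly all of it Cd14, with 5 of its 7 genes below 1 TPM everywhere and Adgre1 at 0 counts. The fibroblast list summed to 42.3 to 101.9 and 75.6 to 84.3 TPM, with Col3a1 leading and Lum at 0 counts, the acinar list to 6.26 to 9.94 and 12.4 to 14.7 TPM, carried by Cela1, the endothelial list to 0.97 to 5.35 and 1.73 to 2.27 TPM, and the T cell list to at most 0.04 TPM. The part of these other markers in the results below was not tested, and in bulk RNA fewer cells of a type and less RNA per cell cannot be told apart.

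The 15 members that passed the test did not move in one direction: genes of the phosphofructokinase step, Slc16a1 and the kinases Pdk1 and Pdk3 fell, while Slc2a1, Slc16a3, Pfkfb4 and Pdhb rose. Without WT replicate 1, with 2 WT and 3 knockdown libraries, edgeR's quasi-likelihood test with Benjamini-Hochberg adjustment called 15 of the 31 members tested at an adjusted p below 0.05 (48.4%), against 34.3% of all 15152 genes. Of these, 6 were higher in knockdown cells (19.4%, against 16.3% of all genes) and 9 were lower (29.0%, against 18.0%). With all 6 libraries the same test called no member and 0.0% of the 14679 genes tested; 10 members, and 16.0% of all genes, had an unadjusted p below 0.05. DESeq2 on the 6 libraries called 8 members (against 7.68% of all genes): Pfkfb4 and Eno2 were higher (3.9% of all genes were), and Pfkl, Pfkm, Aldoc, Slc16a1, Pdk1 and Pdk3 were lower (3.78% of all genes). Once each library's trend with gene length was removed, edgeR on the 6 libraries called 4 members (against 6.08% of all genes), with Pfkfb4 higher (3.01% of all genes) and Pfkm, Pdk1 and Pdk3 lower (3.07%). On log2(TPM + 1) without WT replicate 1, limma called 8 members (against 17.8% of all genes), with 3 higher (10.5%) and 5 lower (7.26%). With the GC trend removed in those 5 libraries, edgeR called 16 (against 31.6%), with 5 higher (15.6%) and 11 lower (16.0%). "Rose" and "fell" below refer to the fit without WT replicate 1. The median log2 fold change of the members was -0.01, beside -0.009 over all genes, and the median size without regard to sign was 0.2, beside 0.24. No called member changed by 1 log2 unit; their sizes ran from 0.19 to 0.9. All 15 had the same sign with all 6 libraries, and for 14 of them the 3 WT and 3 knockdown values in CPM did not overlap even with WT replicate 1 included, the exception being Pdhb. In TPM the groups of 9 of the 15 were separate over the 6 libraries: Pdhb was among them, and Pfkl, Pfkm, Pfkp, Pgk1, Ldha and Pdk1 overlapped. The share of all genes with separate groups in TPM is not given here, so this count has no baseline. On log2(TPM + 1) over the 6 libraries the median log2 fold change of all genes was 0.26, which favours higher over lower values. Over all 31 members, 18 (58.1%) had separate groups in CPM over 6 libraries, 7 higher and 11 lower, against 34.3% of all genes (18.7% higher and 15.6% lower). Without WT replicate 1 there were 21, against 59.8%, with 10 higher (30.4% of all genes) and 11 lower (29.3%). The count of members that rose hung on single libraries: it was 3 without WT replicate 3 and 10 without knockdown replicate 1. Leaving out WT replicate 2 or 3 as well leaves 1 WT library, so that the spread comes from the knockdown libraries alone. The single WT library left is then taken to have the same spread, and this holds for each such value below. Shares of all genes are not given for the fits that leave out a further library, so their counts cannot be set against all genes.

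**Figure D1:**
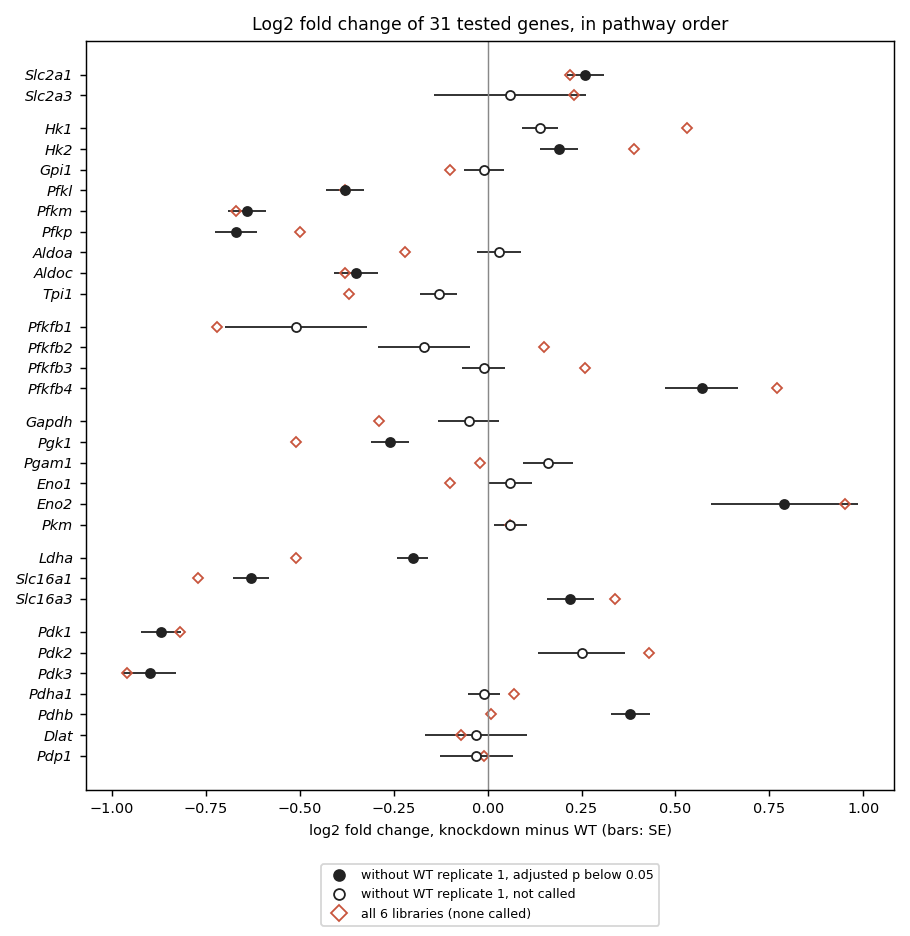
Log2 fold change (knockdown minus WT, horizontal axis) of the 31 tested genes in pathway order from glucose carriers (top) to pyruvate dehydrogenase (bottom); circles with SE bars are the fit without WT replicate 1, filled where the edgeR adjusted p was below 0.05, and open diamonds are the fit of all 6 libraries. The lower values gather at phosphofructokinase (Pfkl, Pfkm, Pfkp), Slc16a1, Pdk1 and Pdk3, and Pdhb is the called gene whose 6-library value (0.01) lies near 0.

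At the entry of glucose, the main carrier and one hexokinase rose slightly. Slc2a1, which encodes the basal glucose carrier GLUT1 (ENSMUSG00000028645, GRCm38 chr4:119108711-119137983), stood at 201.8, 188.1 and 175.9 CPM in WT replicates 1 to 3 and at 216.1, 224.2 and 219.0 CPM in knockdown replicates 1 to 3. All knockdown libraries lay above all WT libraries, with a log2 fold change of 0.26 (SE 0.0495, edgeR adjusted p = 0.00262), or 19.5% more. Over all 6 libraries the value was 0.22 (edgeR adjusted p = 0.428), and without WT replicate 3 it was 0.21 (adjusted p = 0.0688). Slc2a3, which encodes GLUT3, was low, at 2.13 to 3.65 CPM in the 6 libraries, so that Slc2a1 made up 98.6% to 99.5% of the summed TPM of both carriers. Slc2a3 did not pass the test (log2 fold change 0.06, edgeR adjusted p = 0.855).

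Hexokinases trap glucose by phosphorylation. Hk2, the inducible form that is high in many tumours, stood at 105.4, 154.9 and 168.3 CPM in WT and 194.2, 183.6 and 183.3 CPM in knockdown libraries. The groups did not overlap, and WT replicate 1 was far below the rest. Its log2 fold change was 0.19 (SE 0.0505, edgeR adjusted p = 0.0128) without that library and 0.39 (edgeR adjusted p = 0.393) with it. Hk2 was not called on the TPM scale (log2 fold change 0.12 on log2(TPM + 1), limma adjusted p = 0.251) or without WT replicate 2 (0.13, edgeR adjusted p = 0.206). Hk1, the widely expressed form, was at 272.8 and 254.6 CPM in WT replicates 2 and 3 and between 289.9 and 297.5 CPM in knockdown libraries, but at 82.8 CPM in WT replicate 1. It missed the threshold (0.14, SE 0.048, edgeR adjusted p = 0.0504), passed it in DESeq2 (0.15, adjusted p = 0.0233), and lost its difference when each library's trend with GC content was removed (-0.003, edgeR adjusted p = 0.972). By TPM, Hk1 held 21.3% of the hexokinase transcripts in WT replicate 1 and 61.4% to 64.5% in the other 5 libraries.

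The phosphofructokinase step fell in all 3 of its isozymes. Pfkm, the muscle-type subunit, stood at 147.9, 138.0 and 137.0 CPM in WT and 86.4, 92.1 and 88.1 CPM in knockdown libraries. Pfkp, the platelet-type subunit, stood at 85.8, 117.7 and 127.3 CPM in WT and 81.8, 75.3 and 77.2 CPM in knockdown libraries. Pfkl, the liver-type subunit, stood at 310.5, 303.7 and 301.4 CPM in WT and 224.0, 245.1 and 235.5 CPM in knockdown libraries. For each isozyme every knockdown library was below every WT library, narrowly for Pfkp, whose value in WT replicate 1 was close to knockdown replicate 1. Pfkm fell by 36.0% (log2 fold change -0.64, SE 0.051, edgeR adjusted p = 1.53e-05) and Pfkp fell by 36.9% (-0.67, SE 0.0549, edgeR adjusted p = 1.88e-05). Pfkl fell by 23.2% (-0.38, SE 0.0508, edgeR adjusted p = 0.000313). Over all 6 libraries the values were -0.67 for Pfkm, -0.5 for Pfkp and -0.38 for Pfkl, with edgeR adjusted p of 0.11, 0.268 and 0.245; DESeq2 on the 6 libraries called Pfkm (adjusted p = 7.73e-08) and Pfkl (0.00357) but not Pfkp (0.106). On log2(TPM + 1) Pfkl missed the threshold (-0.35, limma adjusted p = 0.0579), and over 6 libraries no isozyme's groups were separate in TPM.

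The summed TPM of the 3 isozymes was 254.1 in WT replicate 2, 272.2 in WT replicate 3 and 174.5, 190.9 and 194.4 in the knockdown libraries, while WT replicate 1 had 142.7. Within that sum the share of Pfkl was 48.6%, 49.7% and 51.5% in WT libraries and 54.1%, 55.4% and 57.8% in knockdown libraries. The shares of Pfkm (28.1% to 31.2% in WT, 25.5% to 26.9% in knockdown) and Pfkp (20.2% to 20.6% in WT, 16.8% to 19.0% in knockdown) were lower in every knockdown library. By TPM, the transcript mix leaned more to Pfkl in each knockdown library. Shares by CPM are not given here, and the size of a shift may depend on the scale. Shares were described and not tested. Pfkm and Pfkp each share annotated exon bases with a gene on the opposite strand, and strandedness is not given in the sources used here. Pfkp (chr13:6579768-6648777) shares 748 bases, 5.58% of its annotated exon bases, with Pitrm1, which itself fell (log2 fold change -0.51, edgeR adjusted p = 0.000128) and whose count reached 110.0% of that of Pfkp. Pfkm (chr15:98092589-98132451) shares 18 bases with Senp1 (-0.1, edgeR adjusted p = 0.127). The part of these overlaps in the results was not tested.

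**Figure D2:**
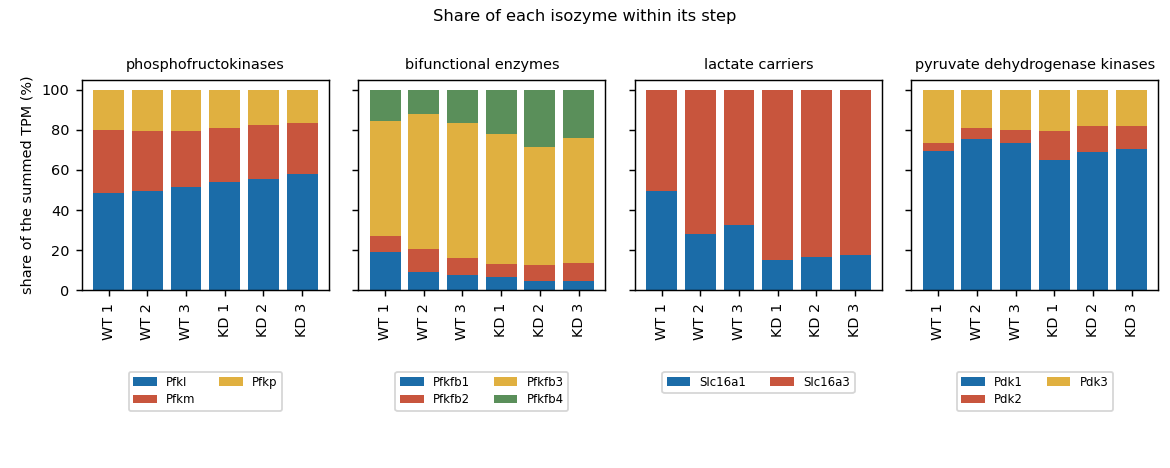
Share of each isozyme in the summed TPM of its step (vertical axis, percent, stacked to the whole) in each of the 6 libraries, for phosphofructokinases, the bifunctional PFKFB enzymes, lactate carriers and pyruvate dehydrogenase kinases. By TPM, Pfkl, Pfkfb4, Slc16a3 and Pdk2 take a larger share in every knockdown (KD) library than in any WT library. For Slc16a3 it was 82.3% to 84.7% against 50.7% to 72.2%. The size of such a shift depends on the scale. Mean Slc16a3 was 304.3 CPM in WT replicates 2 and 3 and 358.4 CPM in knockdown libraries, but 267.9 and 386.0 in TPM.

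Of the 4 bifunctional enzymes that set fructose 2,6-bisphosphate, Pfkfb4 alone passed the test. It stood at 8.03, 12.4 and 13.3 CPM in WT and 18.4, 20.2 and 19.1 CPM in knockdown libraries, with no overlap. Its log2 fold change was 0.57 (SE 0.0975, edgeR adjusted p = 0.0014), or 48.0% more, and 0.77 with all 6 libraries (edgeR adjusted p = 0.193; DESeq2 adjusted p = 0.0339). On log2(TPM + 1) it was 0.79 and missed the threshold (limma adjusted p = 0.0591). Pfkfb3, the most abundant of the 4, was at 109.9 and 107.5 CPM in WT replicates 2 and 3 and at 113.7, 112.9 and 101.6 CPM in knockdown libraries, so these groups overlapped (-0.01, edgeR adjusted p = 0.946). WT replicate 1 had 56.0 CPM of it. Pfkfb1, low at 2.69 to 6.28 CPM, had a log2 fold change of -0.51 (SE 0.188, edgeR adjusted p = 0.0575), the largest among the members that were not called. Pfkfb2 was at 4.86 to 12.2 CPM (-0.17, edgeR adjusted p = 0.336). By TPM, Pfkfb4 made up 15.6%, 12.3% and 16.6% of the 4 in WT and 22.2%, 28.5% and 23.9% in knockdown libraries. Pfkfb1 and Pfkfb2 share exon bases with more abundant genes (Apex2 with Pfkfb1, Yod1 and Gm29427 with Pfkfb2), so their low counts are uncertain.

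Between these steps, the aldolase Aldoc fell while the far more abundant Aldoa did not pass the test. Aldoc stood at 130.9, 117.0 and 118.5 CPM in WT and 89.3, 99.6 and 91.8 CPM in knockdown libraries. The groups were separate, and Aldoc fell by 21.4% (-0.35, SE 0.0584, edgeR adjusted p = 0.00122). With all 6 libraries the log2 fold change was -0.38 (edgeR adjusted p = 0.242; DESeq2 adjusted p = 0.0291), and on log2(TPM + 1) without WT replicate 1 it was -0.33 (limma adjusted p = 0.161). Aldoc made up 4.63% to 6.38% of aldolase TPM in WT and 3.48% to 4.24% in knockdown libraries. Aldoa had a log2 fold change of 0.03 (edgeR adjusted p = 0.732), -0.22 with all 6 libraries and -0.13 with the GC trend removed. Gpi1, which converts glucose 6-phosphate to fructose 6-phosphate, was at 824.7 to 903.2 CPM in the 5 libraries other than WT replicate 1 (-0.01, edgeR adjusted p = 0.929). Tpi1, which interconverts the triose phosphates, missed the threshold (-0.13, SE 0.0496, edgeR adjusted p = 0.0699) and passed it with the GC trend removed (-0.17, edgeR adjusted p = 0.0135).

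In lower glycolysis, Pgk1 fell, Eno2 rose and the abundant enzymes Gapdh, Pgam1, Eno1 and Pkm did not pass the test. Pgk1, which makes the first ATP of the pathway, stood at 1882.4, 1165.4 and 1186.7 CPM in WT and 937.6, 1031.6 and 1007.2 CPM in knockdown libraries. In CPM the groups were separate and WT replicate 1 was far above the rest, while in TPM WT replicate 1 (921.4) lay among the knockdown libraries (862.2 to 966.8). Pgk1 fell by 16.5% (log2 fold change -0.26, SE 0.0511, edgeR adjusted p = 0.00289), with -0.51 over all 6 libraries (edgeR adjusted p = 0.354). It was not called on log2(TPM + 1) (-0.23, limma adjusted p = 0.0678) or without WT replicate 3 (-0.25, edgeR adjusted p = 0.052). Eno2, the neuron-type enolase, was low but separate, at 1.97, 3.28 and 2.47 CPM in WT and 5.37, 4.57 and 5.02 CPM in knockdown libraries. It rose by 0.79 on the log2 scale (SE 0.195, edgeR adjusted p = 0.01) and by 0.95 over all 6 libraries (edgeR adjusted p = 0.165), and lost the call without WT replicate 3 (0.58, edgeR adjusted p = 0.128). It never held more than 0.495% of the enolase TPM, the rest being Eno1 (0.06, edgeR adjusted p = 0.493).

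Gapdh, often used as a reference gene, stood at 9090.5, 5868.1 and 5759.3 CPM in WT and 5066.4, 5998.2 and 5912.2 CPM in knockdown libraries. Knockdown replicate 1 was lowest and WT replicate 1 highest, and the other 4 libraries lay close together (-0.05, SE 0.0811, edgeR adjusted p = 0.663). The sign depended on the scale: on log2(TPM + 1) the value was 0.19 (limma adjusted p = 0.0958). Pkm, which encodes both splice forms of pyruvate kinase M, read together here, stood at 4096.0, 3950.4 and 3905.1 CPM in WT and 4019.1, 4202.1 and 4221.0 CPM in knockdown libraries. The groups overlapped once WT replicate 1 was included, and the log2 fold change of 0.06 (SE 0.0437, edgeR adjusted p = 0.302) turned to -0.13 with the GC trend removed (edgeR adjusted p = 0.0377). Pgam1 was at 1131.4 CPM in knockdown replicate 1 against 955.8 and 971.0 CPM in the other knockdown libraries (0.16, edgeR adjusted p = 0.0904). Pkm shares 767 exon bases with Gm49759, an entry on the same strand that held at most 5.76% of its count and fell (-0.45, edgeR adjusted p = 0.000113); its part was not tested. Few counts fell on gene copies: entries named as copies of Gapdh held at most 0.032% of its count, those of Eno1 at most 0.018% and those of Ldha at most 0.007%.

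At the lactate step the carrier pair moved in opposite directions. Slc16a1, which encodes MCT1, a carrier that moves lactate and pyruvate in or out of the cell, stood at 448.6, 331.3 and 335.9 CPM in WT and 232.0, 211.7 and 211.9 CPM in knockdown libraries. Slc16a3, which encodes MCT4, the carrier known for lactate export from strongly glycolytic cells, stood at 239.2, 323.3 and 285.2 CPM in WT and 380.1, 352.6 and 342.5 CPM in knockdown libraries. Neither gene's groups overlapped. Slc16a1 fell by 35.2% (log2 fold change -0.63, SE 0.0479, edgeR adjusted p = 1.31e-05), with -0.77 over all 6 libraries (edgeR adjusted p = 0.146; DESeq2 adjusted p = 0.00132). Slc16a3 rose by 16.5% (0.22, SE 0.0624, edgeR adjusted p = 0.0214), with 0.34 over all 6 libraries (edgeR adjusted p = 0.362). The call for Slc16a3 was the less stable one: it was lost with the GC trend removed (0.07, edgeR adjusted p = 0.368), on log2(TPM + 1) (0.53, limma adjusted p = 0.0545), without WT replicate 3 (0.13, edgeR adjusted p = 0.272) and without knockdown replicate 2 (0.24, edgeR adjusted p = 0.0521). Slc16a1 was called in each of the 16 alternative settings without WT replicate 1. By TPM, Slc16a1 held 49.3%, 27.8% and 32.5% of the transcripts of both carriers in WT and 15.3%, 16.5% and 17.7% in knockdown libraries.

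Lactate dehydrogenase transcripts were nearly all Ldha. Ldha, whose product reduces pyruvate to lactate, stood at 4516.5, 2542.5 and 2590.7 CPM in WT and 2255.5, 2320.2 and 2205.2 CPM in knockdown libraries. In CPM the groups were separate, with WT replicate 1 far above all others. In TPM WT replicate 1 (2618.8) lay below the other WT libraries and below knockdown replicate 2 (2631.6), so the groups overlapped. Ldha fell by 12.9% (log2 fold change -0.2, SE 0.0411, edgeR adjusted p = 0.00388), with -0.51 over all 6 libraries (edgeR adjusted p = 0.402), and was not called on log2(TPM + 1) (-0.17, limma adjusted p = 0.0954) or without WT replicate 3 (-0.19, edgeR adjusted p = 0.0827). Ldhb, the heart-type subunit, had 5, 0 and 4 counts in WT and 3, 2 and 1 counts in knockdown libraries (rounded), was removed by the filter on low counts and held at most 0.0168% of lactate dehydrogenase TPM.

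**Figure D3:**
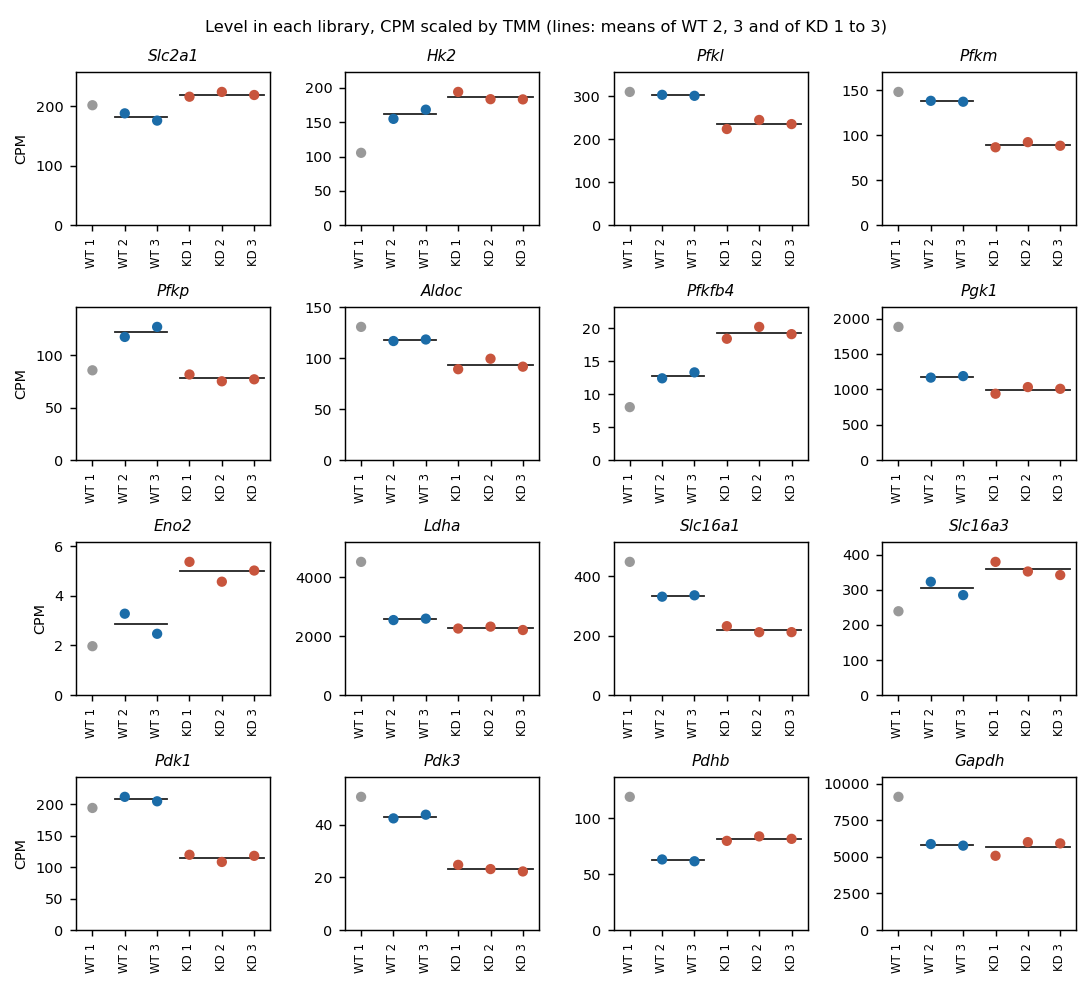
CPM scaled by TMM (vertical axes from 0) in WT replicate 1 (grey), WT replicates 2 and 3 (blue) and knockdown replicates 1 to 3 (red) for the 15 called genes and Gapdh; lines are the means of WT replicates 2 and 3 and of the 3 knockdown libraries. For Pdk1, Pdk3, Pfkm and Slc16a1 all knockdown points lie well below all WT points, and for Pdhb WT replicate 1 (118.9) lies above the knockdown libraries that the other WT libraries lie below.

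At the entry of pyruvate into the citric acid cycle, the kinases Pdk1 and Pdk3, which switch pyruvate dehydrogenase off by phosphorylating it, had the largest falls of all members. Pdk1 stood at 194.2, 211.9 and 204.8 CPM in WT and 119.7, 108.3 and 118.0 CPM in knockdown libraries. Pdk3 stood at 50.7, 42.5 and 43.9 CPM in WT and 24.8, 23.2 and 22.3 CPM in knockdown libraries. For both, every knockdown library was far below every WT library in CPM, WT replicate 1 included. In TPM this held for Pdk3 but not for Pdk1, whose 47.1 TPM in WT replicate 1 lay within the 42.6 to 50.8 TPM of the knockdown libraries, below the 87.9 and 83.4 TPM of the other WT libraries. Pdk1 fell by 45.2% (log2 fold change -0.87, SE 0.0529, edgeR adjusted p = 3.32e-06) and Pdk3 fell by 46.3% (-0.9, SE 0.0716, edgeR adjusted p = 1.56e-05). Over all 6 libraries the values were -0.82 and -0.96, with edgeR adjusted p of 0.095 and 0.0919 and DESeq2 adjusted p of 1.09e-11 and 1.06e-08. Both were called in all 16 alternative settings without WT replicate 1, with ranges of -0.9 to -0.79 for Pdk1 and -0.93 to -0.75 for Pdk3.

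Pdk2, the third kinase, was low and did not pass the test: it stood at 6.55, 9.04 and 10.4 CPM in WT and 11.1, 12.0 and 11.8 CPM in knockdown libraries (0.25, SE 0.115, edgeR adjusted p = 0.126). Its groups were separate, and its share of the kinase TPM was 3.74%, 5.61% and 6.59% in WT and 14.2%, 12.9% and 11.9% in knockdown libraries. The summed TPM of the 3 kinases was 116.5 in WT replicate 2, 113.7 in WT replicate 3 and 65.3, 68.6 and 72.3 in the knockdown libraries, but 67.7 in WT replicate 1, within the knockdown range. For the enzyme itself, Pdhb, the beta subunit of its first component, stood at 118.9, 63.0 and 61.4 CPM in WT and 79.6, 83.6 and 81.4 CPM in knockdown libraries. Without WT replicate 1 Pdhb rose by 29.7% (0.38, SE 0.0527, edgeR adjusted p = 0.000426); with it the groups overlapped and the value was 0.01 (edgeR adjusted p = 0.991), with a negative sign in DESeq2 (-0.01, adjusted p = 0.993). In TPM, where WT replicate 1 had 73.1 against 73.2 and 71.2 in the other WT libraries and 93.4 to 98.7 in knockdown libraries, the groups were separate. Pdha1, its partner alpha subunit, was at 189.2 to 194.6 CPM in the 5 libraries other than WT replicate 1 (-0.01, edgeR adjusted p = 0.878). Dlat, the acetyltransferase core, was at 48.0 CPM in knockdown replicate 1 and at 35.0 and 35.8 CPM in the others (-0.03, edgeR adjusted p = 0.901), and the phosphatase gene Pdp1, at 15.8 to 17.8 CPM, had -0.03 (edgeR adjusted p = 0.872).

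Per length, Gapdh was the highest member, with a mean of 10542.1 TPM in WT replicates 2 and 3 and 12016.6 TPM in knockdown libraries. Ldha (2803.7 and 2860.9 TPM) stood just above Pkm (2730.5 and 2714.4 TPM) in these WT libraries, and below it in every knockdown library (2447.0 to 2631.6 TPM for Ldha and 2807.4 to 2945.7 TPM for Pkm). Aldoa, Tpi1 and Eno1 followed at 1671.2 to 1806.9 TPM in WT replicates 2 and 3, with ranges that overlapped. Then came Pgk1, Pgam1 and Gpi1 with means of 1077.2, 854.2 and 640.2 TPM. Carriers, hexokinases, phosphofructokinases and the pyruvate dehydrogenase genes lay lower, at 267.9 TPM for Slc16a3, 133.3 TPM for Pfkl, 114.8 TPM for Slc16a1, 107.2 TPM for Pdha1 and 85.7 TPM for Pdk1. Slc2a3 (1.23 TPM), Eno2 (2.38 TPM) and Ldhb (0.09 TPM) closed the order.

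**Figure D4:**
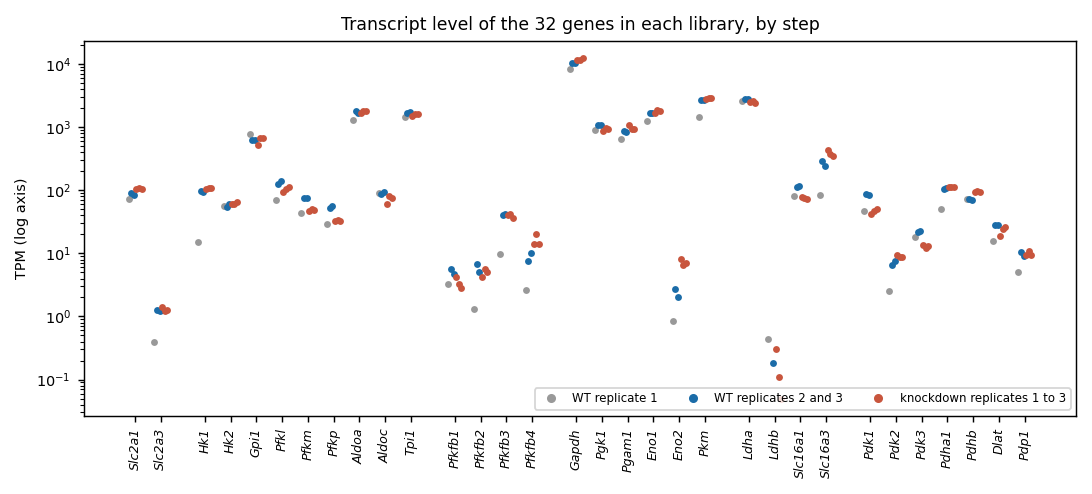
TPM (log axis) of the 32 genes in pathway order, with 1 point per library for WT replicate 1 (grey), WT replicates 2 and 3 (blue) and knockdown replicates 1 to 3 (red); 1 value of 0 (Ldhb in WT replicate 2) cannot be drawn on this axis. Gapdh is highest and Ldhb lowest, and WT replicate 1 lies apart for Hk1, Pfkfb3 and Slc16a3.

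Sequence stretches were read for the members that the results turn on. In the 3' UTR, the 7-base sequences GAACTAC and AACTACA were searched because genes that hold them had been found lower in these knockdown libraries, so a match is a description of the genes and no independent evidence. Among the tested genes with an annotated 3' UTR, 38.3% of the 1459 with a match fell and 9.39% rose (median log2 fold change -0.15), against 17.9% and 19.8% of the 10858 without one (median 0.01). This contrast was not adjusted for UTR length. A match was found in 4 of 33 member entries (12.1%), beside 11.4% of 20551 genes: Pfkm, Slc16a1 and Pdk1, which fell, and Pfkfb2, which did not pass the test. Their UTRs were 392, 2740, 3734 and 2834 bases long in that order, beside a median of 984 over the 20551 genes. The stretches of the 3 that fell follow, 5′ to 3′ on the gene's strand with the matched letters in capitals, from GENCODE M21 transcripts on GRCm38, all on the plus strand.
Pfkm, chr15:98132404-98132432: tgatgaagtgtAACTACActaataaatgc
Slc16a1, chr3:104657049-104657077: ggaccagattgGAACTACAgtgttttggg
Slc16a1, chr3:104658207-104658235: cagtacacttaAACTACActgatcaggaa
Pdk1, chr2:71901243-71901271: cagcttatattAACTACAgaattcatttg
Pdk1, chr2:71903462-71903490: aggtctaaaacAACTACAgaggaggaaag
The first Slc16a1 stretch holds both sequences, which overlap. The other 6 genes that fell (Pfkl, Pfkp, Aldoc, Pgk1, Ldha and Pdk3) hold neither in the UTR read.

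Promoters were searched for ACGTG, a form of the core letters of the hypoxia response element, and its reverse complement CACGT. The palindrome CACGTG counts on both strands. Other forms of the core were not searched. RefSeq promoters on GRCm38.p6, from 250 bases before to 50 after a start, were given for 30 of the 32 genes, all but Slc2a3 and Pdp1. A match was found for 18 of the 30 (60.0%), beside 21.8% of 27025 genes; several members have more than 1 promoter. It was found in 4 of the 6 members that rose, 6 of the 9 that fell and 8 of the 14 that were not called, so it did not divide them by direction. The windows below show it in a pair of genes that rose and in 3 that fell, on the gene's strand with the matched letters in capitals; a match says nothing about binding.
Slc2a1 (rose), chr4:119108697-119108725, plus strand: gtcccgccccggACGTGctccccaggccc
Slc16a3 (rose), chr11:120949028-120949069, plus strand: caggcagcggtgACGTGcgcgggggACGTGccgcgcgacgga
Pgk1 (fell), chrX:106186938-106186985, plus strand: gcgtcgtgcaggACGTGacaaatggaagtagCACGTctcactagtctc
Ldha (fell), chr7:46845647-46845786, plus strand: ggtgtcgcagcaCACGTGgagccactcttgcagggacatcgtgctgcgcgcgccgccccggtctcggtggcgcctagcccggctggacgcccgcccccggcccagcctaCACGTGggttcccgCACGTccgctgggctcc
Pdk3 (fell), chrX:93832187-93832215, minus strand: cgcgcgccgcgtACGTGcggcggcagatc
Neither RefSeq promoter of Pdk1 holds ACGTG or CACGT, and other forms of the core were not searched there.

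Around the pathway, 8 lists of neighbouring genes held 92 genes, of which 73 were tested without WT replicate 1. Of these, 11 rose and 27 fell (52.1% called, against 34.3% of all genes), with a median of -0.09. Of all genes, 16.3% rose and 18.0% fell, which is the background for each list below. With all 6 libraries edgeR called none of the 72 tested (0.0% of all genes). Of the 72, 17 had an unadjusted p below 0.05 in edgeR, as had 16.0% of all genes. DESeq2 called 8 of them, and 7.68% of all genes. In the pentose phosphate pathway, which draws glucose 6-phosphate off, 3 of 8 fell and none rose. The 37.5% called was near the 34.3% of all genes, and the median was -0.04. Those that fell were Rpe (log2 fold change -0.5, edgeR adjusted p = 0.000335), Tkt (-0.41, edgeR adjusted p = 0.000295) and Taldo1 (-0.28, edgeR adjusted p = 0.0431), all enzymes of its non-oxidative arm. Rpia, of the same arm, did not pass the test (0.01, edgeR adjusted p = 0.933). In the glycogen and hexosamine branches 6 of 15 fell and 1 rose (46.7% called). Gbe1, the glycogen branching enzyme, fell by 0.71 (edgeR adjusted p = 8.18e-05) and Pgm3, of hexosamine synthesis, fell by 0.54 (edgeR adjusted p = 0.00154) on the log2 scale, while muscle glycogen phosphorylase Pygm rose by 2.5 (edgeR adjusted p = 0.000152) from under 1 CPM to 3.06 to 3.72 CPM.

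Among other glycolytic isozymes and opposing enzymes, 3 of 11 rose and 6 fell (81.8% called, against 34.3% of all genes), with a median of -0.28. Hkdc1, a hexokinase-domain protein, rose by 1.21 (edgeR adjusted p = 0.0019) at 1.04 to 3.74 CPM, and Eno3 rose by 0.45 (edgeR adjusted p = 0.000154), both on the log2 scale. Over all 6 libraries the value for Eno3 was 0.1, with overlapping groups. Of other lactate and pyruvate carriers 1 of 5 rose and 2 fell (60.0% called). Bsg, the chaperone that brings MCT1 and MCT4 to the membrane, rose (0.19, edgeR adjusted p = 0.0143). Slc16a7, which encodes MCT2 (-1.0, edgeR adjusted p = 0.0193), and Mpc1, a subunit of the mitochondrial pyruvate carrier (-0.25, edgeR adjusted p = 0.0154), fell. Bsg had the opposite sign with all 6 libraries (-0.11, edgeR adjusted p = 0.843). Slc16a7 was low, at 1.03 to 3.05 CPM, and WT replicate 1 (1.37 CPM) lay among the knockdown libraries. Over all 6 libraries its groups overlapped (-0.69, edgeR adjusted p = 0.433). Of the other genes of the pyruvate dehydrogenase complex 1 of 5 rose, the phosphatase Pdp2 (0.23, edgeR adjusted p = 0.0403), and 1 fell, Dld, its dihydrolipoamide dehydrogenase (-0.22, edgeR adjusted p = 0.00397). The kinase gene Pdk4, named here after its values were seen, had the largest difference of this list and narrowly missed the threshold. It stood at 0.71, 0.887 and 0.974 CPM in WT and 2.73, 1.47 and 1.51 CPM in knockdown libraries, with separate groups and a sign opposite to Pdk1 and Pdk3 (1.0, SE 0.359, edgeR adjusted p = 0.0527; 1.14 over all 6 libraries, edgeR adjusted p = 0.222).

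Of the NADH shuttle genes, which carry the electrons of glycolytic NADH into mitochondria, 1 of 10 rose and 3 fell (4 of 10 called, near the 34.3% of all genes): Slc25a11, Gpd2 and Slc25a13, with log2 fold changes of -0.22, -0.21 and -0.2 (edgeR adjusted p of 0.00751, 0.00494 and 0.0128). Gpd2 was at 0.02 with all 6 libraries. Of 4 other glucose carriers tested, Slc2a8 rose (0.47, edgeR adjusted p = 0.0464), and the others did not pass the test (25.0% called). WT replicate 1 had 6.44 CPM of Slc2a8, within the 5.97 to 7.85 CPM of the knockdown libraries. Over all 6 libraries its groups overlapped (0.33, edgeR adjusted p = 0.457). Among 15 transcriptional regulators of glycolysis 3 rose and 6 fell (60.0% called). Myc, a transcription factor with glycolytic targets, stood at 129.1, 80.1 and 70.1 CPM in WT and 136.4, 124.7 and 131.7 CPM in knockdown libraries, so that WT replicate 1 lay among the knockdown values. Its log2 fold change was 0.79 (edgeR adjusted p = 2.3e-05) without that library and 0.49 (edgeR adjusted p = 0.385) with it. Egln2, an oxygen-sensing hydroxylase of the hypoxia-inducible factors, rose by 0.7 (edgeR adjusted p = 3.04e-05) and Vhl, which marks those factors for destruction, fell by 0.7 (edgeR adjusted p = 0.000181) on the log2 scale, both with separate groups over the 6 libraries.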

How the data were processed

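RNA from 6 libraries was compared, 3 per group. Per the submitters' processing notes the tools were fastp, HISAT2, StringTie and DESeq2, without versions, and the builds named are human although the identifiers are mouse Ensembl genes. Which program counted the genes, and whether strand was used, is not stated in the labels. The authors deposited expected counts, of which 10.1% to 13.0% per library were not whole, and TPM, scaled to a fixed sum per library. Counts were rounded, filtered with filterByExpr, scaled by TMM and tested with edgeR 4.0.16 (quasi-likelihood, robust) in R 4.3.3 over all genes, two-sided, with Benjamini-Hochberg adjustment and a threshold of 0.05. Levels are CPM scaled by TMM over the 6 libraries, and differences are knockdown minus WT on the log2 scale. SE is the log2 fold change divided by the square root of F. The edgeR steps were tested on simulated data.

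Alternatives were DESeq2 1.42.0 or its size factors, library totals, other filters, limma 3.58.1 (voom, or trend on log2 TPM with a pseudocount of 1 or 0.1 for genes averaging 1 TPM or more in either group), the replicate block, removal of each library's trend with length or GC content (known for 96.3% of genes), and leaving out each library. The members and lists, and the fit without WT replicate 1, were chosen with earlier results of these data known. Named are all members, values in every library for the called ones, and up to 3 called genes with the largest change per other list, of which 1 is not reported here. Replicates of a group differed by more than sampling noise. Chi-square per degree of freedom was 297.48 and 327.4 between WT replicate 1 and the other WT libraries. It was 15.0 and 16.82 between knockdown replicate 1 and the other knockdown libraries, so this library also stood somewhat apart. Between knockdown replicates 2 and 3 it was 4.96, and between WT replicates 2 and 3 it was 3.35.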

Additional observations from a re-analysis of the deposited data

How the results depend on the processing

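With all 6 libraries, edgeR called 0 members (10 had an unadjusted p below 0.05); DESeq2 called 8 (2 higher, 6 lower), removal of the length trend gave 4 (1 higher, 3 lower), and leaving out 1 library gave 0 to 15 (0 to 6 higher, 0 to 9 lower), all 15 of them without WT replicate 1. Without WT replicate 1, the 15 calls became 8 on log2(TPM + 1) (3 higher, 5 lower) and 9 on log2(TPM + 0.1) (5 lower), and leaving out a further library gave 10 to 20 (3 to 10 higher, 7 to 10 lower); 2 of these 5 fits, among them the one with 10, have 1 WT library, so their spread comes from the knockdown group alone. Of the 15 called members, 6 (Pfkm, Pfkp, Slc16a1, Pdk1, Pdk3 and Pdhb) were called in all 16 alternatives without WT replicate 1, and all 15 kept their sign there. Over the 12 settings with 6 libraries 14 kept it, all but Pdhb. In the 6-library fits the median log2 fold change of all genes moved from -0.02 to 0.26 on log2(TPM + 1), 0.3 on log2(TPM + 0.1) and 0.08 with library totals.

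Besides Pdhb, the signs that turned belong to members that were not called. Gpi1, Pfkfb3 and Pdha1 turned to 0.003, 0.005 and 0.001 with size factors of DESeq2, 0.03, 0.03 and 0.02 with library totals, 0.008, 0.01 and 0.006 with no filter, 0.009, 0.01 and 0.006 with the filter of 1 CPM, and 0.003, 0.005 and 0.0 in DESeq2. With library totals Dlat was at 0.006 and Pdp1 at 0.009. On both TPM scales Gapdh was at 0.19, Pdha1 at 0.08 and Pdp1 at 0.04. With the GC trend removed Hk1 was at -0.003, Aldoa, Eno1 and Pkm at -0.13 (Pkm then called), Pfkfb3 at 0.01, Pdha1 at 0.09, Dlat at 0.04 and Pdp1 at 0.13. With all 6 libraries Aldoa was at -0.22, Pfkfb2 at 0.15, Pfkfb3 at 0.26, Pgam1 at -0.02, Eno1 at -0.1 and Pdha1 at 0.07. Leaving out a further library gave ranges of -0.04 to 0.15 for Slc2a3, -0.03 to 0.05 for Gpi1 and for Pfkfb3, -0.04 to 0.1 for Aldoa, -0.09 to 0.04 for Gapdh, -0.03 to 0.007 for Pdha1, -0.17 to 0.06 for Dlat and -0.11 to 0.06 for Pdp1. The cause of these shifts was not tested.

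Whether equal replicate numbers pair the libraries could not be settled. Deviations of same-numbered libraries from their group means correlated at -0.11, 0.013 and -0.13, and no library correlated best with its own number. But WT replicate 1 stands apart and so shapes the deviations of all WT libraries. Those of WT replicate 2 correlated with knockdown replicates 1 to 3 at 0.103, 0.013 and -0.136, and those of WT replicate 3 nearly alike, at 0.094, 0.017 and -0.13. With the replicate block edgeR called 18 members without WT replicate 1 (9 higher, 9 lower) and 0 with all 6 libraries, and Slc2a3 (-0.03), Gpi1 (0.04) and Gapdh (0.03) turned sign. The shares of all genes called with the block, or with a further library left out, are not given here. Whether the member counts moved with those of all genes cannot be told. Depth limits the values of Ldhb, Slc2a3, Eno2 and Pfkfb1.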
